A study of Mus musculus with 6 samples.

Results

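The genes described here are 39 genes of the tricarboxylic acid (TCA) cycle and of the pyruvate dehydrogenase step that feeds it, among the 24956 rows of a gene expression table. They were taken from a list of symbols by role in the pathway: 38 were found by symbol, and pyruvate carboxylase was found under its older symbol Pcx. RNA was sequenced from intestinal organoids, cultures of intestinal epithelium that form small gut-like bodies, grown in vitro from mice of the Apc Min genotype. Apc Min carries a truncating mutation in Apc, a brake on Wnt signalling, and all 6 libraries share this genotype. The libraries were 3 from organoids in control medium and 3 from organoids in low glutamine medium, as given by the sample titles and source names (the treatment field reads low glutamine for every sample, controls included). Not given in the sources used here are how much glutamine either medium held, how long the treatment lasted, which intestinal segment was used, and how many animals of what age. The design text calls the libraries biological replicates without naming separate animals or cultures, so a p-value here reflects only how much these libraries varied, which may be technical.

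The TCA cycle burns acetyl groups in the mitochondrion and hands their electrons to the respiratory chain. Pyruvate enters through a carrier, the pyruvate dehydrogenase complex turns it into acetyl-CoA, and a family of kinases and phosphatases switches that complex off and on. Glutamine feeds the same cycle further along: it is turned into glutamate and then into 2-oxoglutarate (alpha-ketoglutarate), the metabolite named in the title of the series, which the cycle also makes from isocitrate and uses in the 2-oxoglutarate dehydrogenase complex. The intestinal epithelium is a large consumer of glutamine.

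Most genes of the cycle and of the pyruvate step were lower in low glutamine. Of the 39 genes, 37 averaged 1 RPKM or more (reads scaled to transcript length and library depth) over the 6 libraries and were tested, with limma on log2(RPKM + 1), a Benjamini-Hochberg adjusted p under 0.05 over 11082 tested genes taken as passing. Of the 37, 29 fell (78.4%), 3 rose (Pdk3, Pdp1 and Ogdhl), and 5 did not pass (Pdhx, Pcx, Suclg2, Idh2 and Acly). Among all tested genes the test called 30.3% lower and 36.1% higher, 66.4% in either direction. The median log2 difference, low glutamine over control, was -0.47 for the 37 genes and 0.03 for all tested genes. Most of these genes are highly expressed, and high genes were more often lower in these data: among tested genes averaging 20 RPKM or more, a limit chosen after the values were seen, 43.8% were lower and 23.8% higher, with a median of -0.10. Of the 28 TCA and pyruvate genes above that level, 25 fell and 0 rose, with a median of -0.48.

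The changes were mostly moderate. On the log2(RPKM + 1) scale of the fit, which understates changes of low genes, 10 of the 37 genes were lower by at least 1.5-fold and 2 of these (Mdh2 and Me1) by at least 2-fold, while Pdp1 and Ogdhl were higher by at least 1.5-fold and Ogdhl by at least 2-fold. As a ratio of mean RPKM, Pdp1 was 2.05 times its control level. Among all tested genes 9.33% were, on the same log2 scale, lower by at least 1.5-fold. The 3 control values of a gene lay wholly above the 3 low glutamine values for 29 of the 39 genes and wholly below for 4, against 31.3% and 38.9% of all tested genes (70.2% in either direction). Together the 39 genes held 0.851% to 0.876% of the summed RPKM of a control library and 0.631% to 0.645% of that of a low glutamine library.

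**Figure D1:**
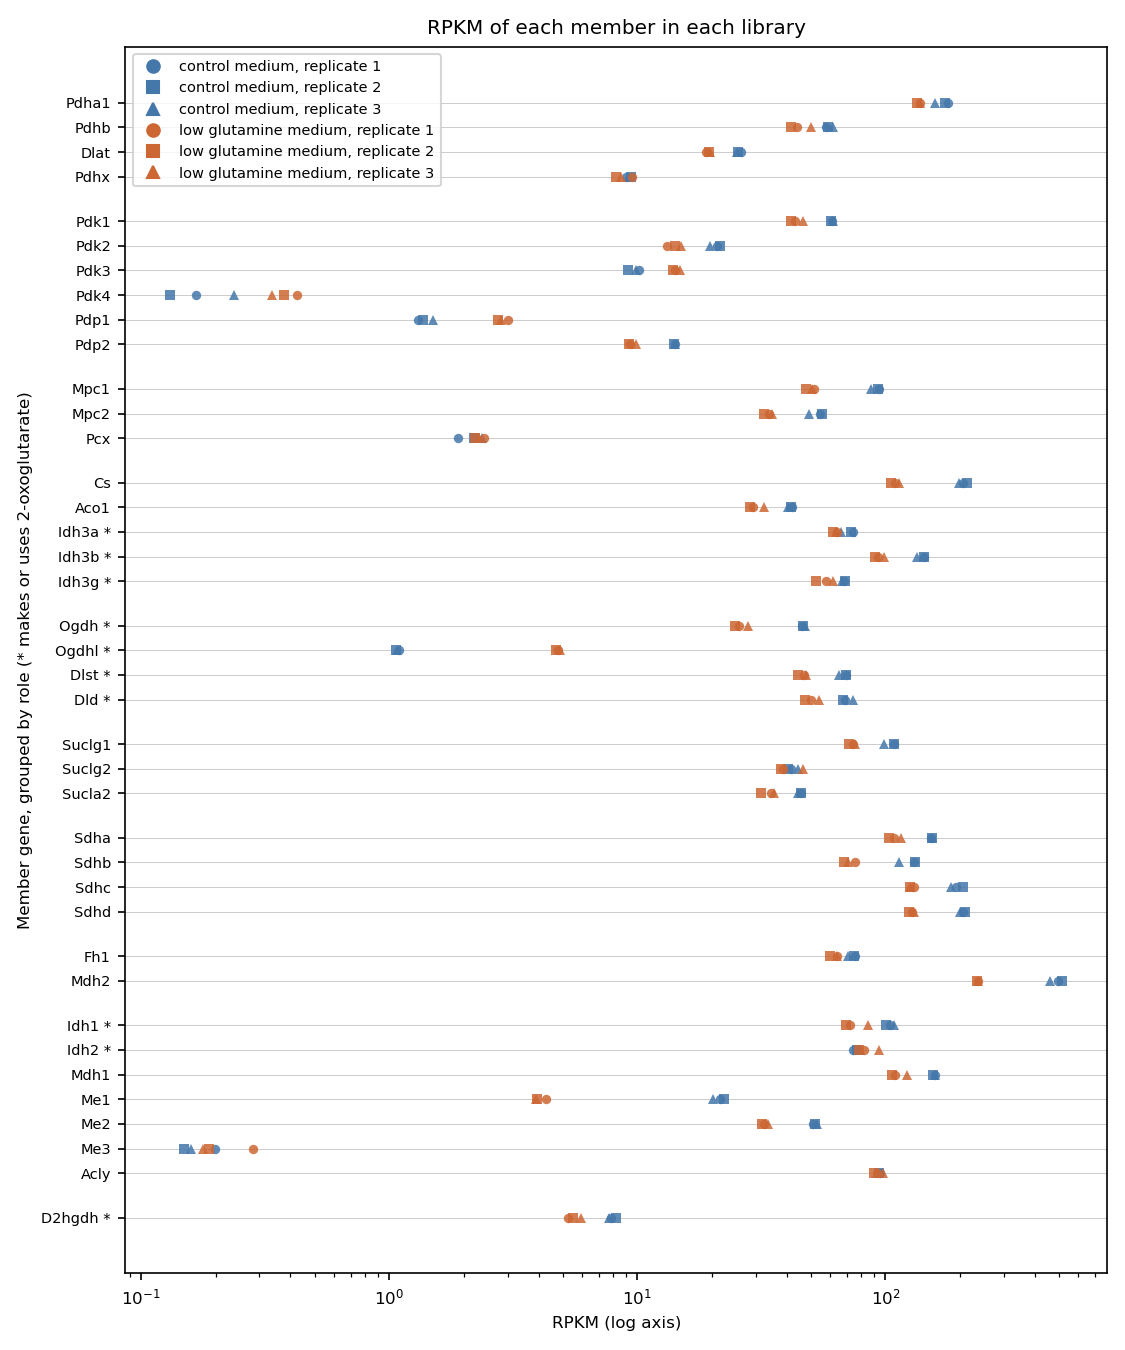
RPKM of each of the 39 genes (rows, grouped by role) on a log axis, with 1 point per library: blue for control medium, orange for low glutamine medium, and a circle, square or triangle for replicates 1, 2 and 3. The orange points of 29 genes sit wholly to the left of the blue ones, and those of Pdk3, Pdk4, Pdp1 and Ogdhl wholly to the right.

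**Figure D2:**
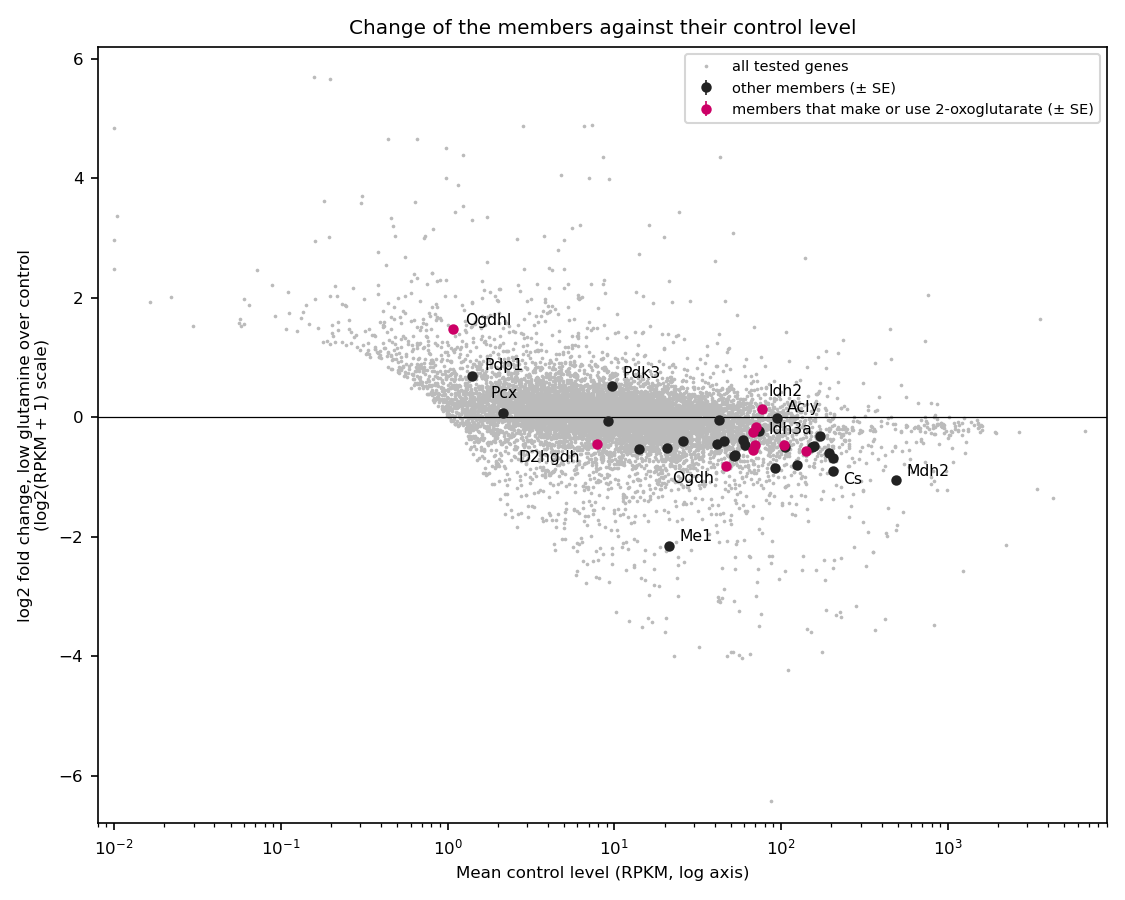
Log2 difference of low glutamine over control, on the log2(RPKM + 1) scale, against the mean control RPKM on a log axis (genes at 0 in control are drawn at 0.01). Grey points are all 11082 tested genes and large points the 37 tested TCA and pyruvate genes with SE bars, in magenta where the enzyme makes or uses 2-oxoglutarate. Most large points lie below 0 at control levels above 20 RPKM, with Me1 lowest and Ogdhl highest.

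Several properties of the libraries moved with the groups. The X-silencing RNA Xist ranged from 83.1 to 90.5 RPKM in the controls and from 0.024 to 0.035 RPKM with low glutamine. The Y-linked Eif2s3y had 0 RPKM throughout the controls but 25.2 to 31.4 RPKM with low glutamine. The sex-linked Kdm5d and Uty also had 0 RPKM throughout the controls and were present in every low glutamine library. The medium and this difference in sex-linked transcripts therefore cannot be told apart. Nor can the medium be told apart from a difference in donor animal or organoid line between the groups, which was not tested. Among the 34 tested genes of the set on autosomes 27 fell and 2 rose, against 30.5% lower and 35.8% higher of all tested autosomal genes. Counting autosomal genes alone does not separate the medium from the difference in sex-linked transcripts or from a difference in donor. The level of the ribosomal RNA precursor Rn45s was 1898, 2074 and 6680 RPKM in the controls against 9778, 12252 and 6788 RPKM with low glutamine. Of 24 enterocyte markers (absorptive cells) 21 fell and 3 rose, with a summed level of 4666 to 4979 RPKM in the controls against 1208 to 1344 RPKM with low glutamine, and all 15 stem cell markers rose (1004 to 1089 against 1991 to 2182 RPKM). The 12 immune markers were under 1 RPKM in every library (summed 1.33 to 1.38 and 0.485 to 0.883 RPKM, with Cd4, Adgre1 and Ncr1 among those at 0), as were 11 of 12 stromal and endothelial markers (summed 3.45 to 4.17 and 11.3 to 13.3 RPKM, with Col3a1 and Lum at 0). The exception was Vim, which rose from 3.29 to 11.5 RPKM. Of 9 epithelial markers 4 rose and 5 fell, with sums of 2584 to 2824 and 2887 to 2968 RPKM. The part of these differences in the TCA results was not tested, and in bulk RNA fewer cells of a type and less RNA per cell cannot be told apart.

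Scaling moved the small changes. With each library rescaled to a common RPKM sum, or to a common sum without Rn45s, the median of all genes shifted by 0.11 and 0.14, and the share of all calls that were higher went from 54.4% to 69.0% and 71.6%. Relative to the median of all genes, the median of the TCA and pyruvate genes was -0.50 as fitted, -0.48 under either rescaling and -0.32 after quantile normalization.

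The mitochondrial pyruvate carrier, a pair of inner membrane proteins that bring pyruvate to the cycle, fell in both subunits. Mpc1 (chromosome 17, 8283787 to 8297667, RefSeq bounds on GRCm38, the mm10 build) measured 93.8, 93.5 and 87.4 RPKM in control replicates 1 to 3 and 51.8, 48.1 and 50.8 RPKM in low glutamine replicates 1 to 3. It fell from 91.6 ± 3.62 to 50.2 ± 1.92 RPKM (mean ± SD, n = 3 per group; log2 difference -0.85 ± 0.056 SE, limma adjusted p = 4.8e-08). Its partner Mpc2 measured 54.5, 55.4 and 49.1 RPKM in the control libraries and 33.9, 32.4 and 35.0 RPKM in the low glutamine libraries, a fall from 53.0 ± 3.45 to 33.8 ± 1.30 RPKM (-0.63 ± 0.061, adjusted p = 1.5e-06). The groups were far apart for both subunits. Pcx, which makes oxaloacetate from pyruvate (chromosome 19, 4510472 to 4621752), did not pass: its values were 1.89, 2.19 and 2.37 RPKM in the control libraries and 2.41, 2.22 and 2.31 RPKM in the low glutamine libraries, which overlapped, with a log2 difference of 0.08 (95% interval -0.07 to 0.23, adjusted p = 0.34). It passed as higher, by 0.18 (adjusted p = 0.04), with rescaling without Rn45s.

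In the pyruvate dehydrogenase complex 3 of 4 subunits fell, each to between 75.3% and 80.0% of control. Pdha1 and Pdhb encode the alpha and beta chains of the decarboxylating E1 component. Pdhb (chromosome 14, 8165991 to 8173303) measured 57.6, 58.8 and 61.7 RPKM in the control libraries and 44.2, 41.6 and 50.1 RPKM in the low glutamine libraries, a fall from 59.4 ± 2.08 to 45.3 ± 4.35 RPKM (-0.39 ± 0.068, adjusted p = 3.2e-04). Dlat, the E2 core that carries the lipoyl arm (chromosome 9, 50634633 to 50659780), measured 26.2, 25.5 and 25.3 RPKM in the control libraries and 18.9, 19.4 and 19.6 RPKM in the low glutamine libraries and fell from 25.7 ± 0.497 to 19.3 ± 0.346 RPKM (-0.39 ± 0.049, adjusted p = 1.8e-05). The 2 groups did not overlap for either gene, and the replicates of Dlat lay within 1 RPKM of each other. The X-linked Pdha1 (chromosome X, 160122219 to 160138430) fell from 170.4 ± 10.4 to 136 ± 2.12 RPKM (-0.32 ± 0.061, adjusted p = 6.2e-04), but after quantile normalization its difference was -0.02 (adjusted p = 0.72). Pdhx, which tethers the E3 component to the core, was the subunit that did not pass, at 9.18 ± 0.206 and 8.76 ± 0.656 RPKM (log2 difference -0.06, 95% interval -0.19 to 0.06, adjusted p = 0.36). With Dld, the E3 component, the subunits of the complex ranged from -0.46 to -0.06 on the log2 scale.

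The regulators of the complex moved in both directions. The kinases Pdk1 to Pdk4 phosphorylate E1 and switch the complex off, and the phosphatases Pdp1 and Pdp2 undo this. Pdk1, the most abundant kinase in every library, fell from 61.0 ± 0.617 to 43.8 ± 2.62 RPKM (-0.47 ± 0.057, adjusted p = 1.3e-05) and Pdk2 from 20.7 ± 0.914 to 14.1 ± 0.933 RPKM (-0.52 ± 0.060, adjusted p = 8.3e-06). The X-linked Pdk3 (chromosome X, 93764616 to 93832150) rose: it measured 10.2, 9.17 and 9.89 RPKM in the control libraries and 14.2, 14.0 and 14.9 RPKM in the low glutamine libraries (means 9.74 ± 0.510 and 14.3 ± 0.464 RPKM; 0.52 ± 0.055, adjusted p = 4.1e-06). Pdk4, a kinase known for its induction by fasting, was under the filter at 0.167, 0.131 and 0.237 RPKM in the control libraries and 0.425, 0.378 and 0.338 RPKM in the low glutamine libraries, higher in every low glutamine library, and in a fit with no filter on low values its log2 difference was 0.23 ± 0.041 (adjusted p = 0.0051). Summed over the 4 kinases the level was 91.6 ± 0.698 RPKM in the controls against 72.6 ± 3.68 RPKM with low glutamine. The share of Pdk3 in this sum was 11.0%, 10.1% and 10.8% in the control libraries and 19.95%, 19.97% and 19.3% in the low glutamine libraries.

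The phosphatases moved in opposite directions. Pdp1, the calcium-sensitive form (chromosome 4, 11958183 to 11966450), measured 1.31, 1.37 and 1.51 RPKM in the control libraries and 3.01, 2.75 and 2.83 RPKM in the low glutamine libraries and rose from 1.40 ± 0.101 to 2.86 ± 0.129 RPKM (0.69 ± 0.063, adjusted p = 9.6e-07). Pdp2, the more abundant form here (chromosome 8, 104591472 to 104599026), measured 14.2, 14.1 and 14.1 RPKM in the control libraries and 9.35, 9.23 and 9.89 RPKM in the low glutamine libraries and fell from 14.1 ± 0.0443 to 9.49 ± 0.350 RPKM (-0.53 ± 0.050, adjusted p = 1.4e-06). Pdp1 therefore made up 9.01% ± 0.592 of the phosphatase RPKM in control and 23.2% ± 1.05 in low glutamine, with no overlap between the groups. Such shares compare levels per transcript length within a library, so rescaling a library does not move them. For the 20 shares compared over the isoenzyme and subunit families, the exact two-sided permutation test of 3 against 3 libraries gave its smallest possible p of 0.10 for each (0.10 after adjustment), so no share can pass 0.05 in this design.

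The first steps of the cycle fell. Cs, citrate synthase, joins acetyl-CoA to oxaloacetate (chromosome 10, 128337727 to 128362482) and measured 205, 213 and 198 RPKM in the control libraries and 109, 105 and 113 RPKM in the low glutamine libraries. It went to 53.2% of control, from 205 ± 7.59 to 109 ± 3.99 RPKM (-0.91 ± 0.058, adjusted p = 3.9e-08). Aco1 (chromosome 4, 40143265 to 40199009) encodes the cytosolic aconitase, which also serves as an iron regulatory protein, and measured 41.8, 41.5 and 40.5 RPKM in the control libraries and 29.3, 28.4 and 32.3 RPKM in the low glutamine libraries (-0.45 ± 0.058, adjusted p = 2.5e-05).

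The NAD-dependent isocitrate dehydrogenase, the enzyme of the cycle that makes 2-oxoglutarate, is built from the products of Idh3a, Idh3b and Idh3g, and all 3 fell. Idh3b (chromosome 2, 130279309 to 130284451) measured 144, 143 and 135 RPKM in the control libraries and 93.4, 91.2 and 98.6 RPKM in the low glutamine libraries and fell from 141 ± 5.10 to 94.4 ± 3.82 RPKM (-0.57 ± 0.058, adjusted p = 2.8e-06). Its gene bounds overlap those of Nop56, and reads of overlapping genes may be shared, since whether the counting used strand is not stated. The same holds for Pdha1, Mpc1, Pcx, Dlst, Me1 and Acly, each of which overlaps another gene of the table. The X-linked Idh3g (chromosome X, 73778963 to 73786897) measured 68.3, 68.7 and 66.9 RPKM in the control libraries and 57.4, 52.7 and 61.4 RPKM in the low glutamine libraries (-0.25 ± 0.062, adjusted p = 0.0036), and after quantile normalization its difference was -0.09 (adjusted p = 0.06). Idh3a, the catalytic subunit (chromosome 9, 54586511 to 54604662), measured 74.0, 72.8 and 66.3 RPKM in the control libraries and 64.0, 61.6 and 63.3 RPKM in the low glutamine libraries, a small fall from 71.0 ± 4.13 to 63.0 ± 1.27 RPKM (-0.17 ± 0.058, adjusted p = 0.022). Its control replicate 3 lay nearest to the low glutamine values. The Idh3a call was lost without control replicate 1 (adjusted p = 0.11) or 2 (0.091), without low glutamine replicate 1 (0.054) or 2 (0.065), and with either rescaling (0.38 and 0.73) or quantile normalization (0.95). As a share of the summed Idh3 RPKM, Idh3b went from 50.3% ± 0.024 to 44.0% ± 0.467.

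The 2-oxoglutarate dehydrogenase complex oxidises 2-oxoglutarate to succinyl-CoA. Its usual E1 gene Ogdh and the related E1 gene Ogdhl moved in opposite directions. 4 promoters are shown: those of Ogdh, which fell, and Pdk3, which rose, as both hold the motif most often found in these genes, and those of Me1 and Mdh2, the genes of the set with the largest falls, which do not hold it at this start. Each is the 250 bases before the annotated start from RefSeq on GRCm38.p6: chr11:6291347-6291596 on the plus strand for Ogdh, chrX:93832151-93832400 on the minus strand for Pdk3, chr9:86695915-86696164 on the minus strand for Me1 and chr5:135778399-135778648 on the plus strand for Mdh2. Capitals mark a match on either strand to ACGTG, the core of the hypoxia response element, which reads CACGT when it lies on the opposite strand. The match lies 45 bases before the start in Ogdh and 53 bases before it in Pdk3, and the windows of Me1 and Mdh2 hold no match to any of the 7 motifs searched.
Ogdh: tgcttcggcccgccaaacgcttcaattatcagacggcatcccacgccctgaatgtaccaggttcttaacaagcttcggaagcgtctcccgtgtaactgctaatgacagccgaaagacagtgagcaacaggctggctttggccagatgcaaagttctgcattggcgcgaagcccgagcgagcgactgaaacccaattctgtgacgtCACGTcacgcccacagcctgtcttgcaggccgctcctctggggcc
Pdk3: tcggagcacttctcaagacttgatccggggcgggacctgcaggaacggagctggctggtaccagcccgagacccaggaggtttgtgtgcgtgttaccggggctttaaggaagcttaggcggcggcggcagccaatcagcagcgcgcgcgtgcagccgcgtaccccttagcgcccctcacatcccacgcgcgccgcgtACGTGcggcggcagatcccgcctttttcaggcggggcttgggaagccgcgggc
Me1: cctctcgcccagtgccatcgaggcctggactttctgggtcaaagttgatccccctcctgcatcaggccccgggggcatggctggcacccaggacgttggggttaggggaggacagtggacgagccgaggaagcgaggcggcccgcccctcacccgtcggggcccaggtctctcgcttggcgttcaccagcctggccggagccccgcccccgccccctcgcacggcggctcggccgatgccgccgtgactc
Mdh2: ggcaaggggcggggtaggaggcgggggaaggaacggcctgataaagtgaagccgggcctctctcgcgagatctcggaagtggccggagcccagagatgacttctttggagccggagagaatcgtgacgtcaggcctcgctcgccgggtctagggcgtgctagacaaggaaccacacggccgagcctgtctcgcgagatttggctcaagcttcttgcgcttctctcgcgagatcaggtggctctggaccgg

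Ogdh (chromosome 11, 6291597 to 6359094) measured 45.9, 46.7 and 47.5 RPKM in the control libraries and 25.7, 24.8 and 27.8 RPKM in the low glutamine libraries. It fell from 46.7 ± 0.789 to 26.1 ± 1.57 RPKM (-0.82 ± 0.056, adjusted p = 6.9e-08), to 55.9% of control. Ogdhl (chromosome 14, 32321982 to 32348151) measured 1.09, 1.06 and 1.08 RPKM in the control libraries and 4.78, 4.72 and 4.86 RPKM in the low glutamine libraries and rose from 1.08 ± 0.0151 to 4.79 ± 0.0680 RPKM (1.48 ± 0.056, adjusted p = 2.4e-10), which placed it 230th of the 11082 tested genes by size of rise. The replicates of Ogdhl differed by less than 0.2 RPKM within a group. Ogdh remained the larger of the pair: Ogdhl made up 2.32%, 2.22% and 2.22% of their summed RPKM in the control libraries and 15.7%, 16.0% and 14.9% in the low glutamine libraries. The sum went from 47.8 ± 0.782 to 30.9 ± 1.63 RPKM, so in RPKM the rise of Ogdhl was smaller than the fall of Ogdh.

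The other subunits of this complex fell. Dlst, the E2 core (chromosome 12, 85110822 to 85134091), measured 69.3, 69.5 and 65.2 RPKM in the control libraries and 47.0, 44.3 and 47.9 RPKM in the low glutamine libraries (-0.54 ± 0.056, adjusted p = 2.9e-06). Dld, the E3 component that this complex shares with pyruvate dehydrogenase (chromosome 12, 31331562 to 31351471), measured 68.8, 67.8 and 73.7 RPKM in the control libraries and 50.2, 47.5 and 54.1 RPKM in the low glutamine libraries (-0.46 ± 0.062, adjusted p = 3.2e-05). Neither gene overlapped between the groups, and in both the highest low glutamine value came from replicate 3.

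Succinyl-CoA ligase turns succinyl-CoA into succinate. It pairs the alpha chain from Suclg1 with a beta chain that forms GTP (Suclg2) or ATP (Sucla2). Suclg1 (chromosome 6, 73248505 to 73276907) measured 108, 108 and 98.7 RPKM in the control libraries and 74.1, 71.3 and 75.7 RPKM in the low glutamine libraries and fell from 105 ± 5.45 to 73.7 ± 2.26 RPKM (-0.50 ± 0.058, adjusted p = 9.1e-06). Sucla2 (chromosome 14, 73552786 to 73596144) measured 45.6, 45.6 and 44.3 RPKM in the control libraries and 34.6, 31.7 and 35.5 RPKM in the low glutamine libraries (-0.40 ± 0.057, adjusted p = 4.8e-05). Suclg2 (chromosome 6, 95473009 to 95718858) measured 41.7, 40.6 and 44.6 RPKM in the control libraries and 38.6, 38.0 and 46.5 RPKM in the low glutamine libraries, which overlapped, and did not pass (log2 difference -0.05, 95% interval -0.21 to 0.12, adjusted p = 0.6). Low glutamine replicate 3 was the highest of the 6 libraries, and without it Suclg2 passed as lower (-0.14, adjusted p = 0.035). The GTP-forming chain made up 48.3% ± 1.61 of the beta chain RPKM in control and 54.7% ± 1.97 in low glutamine.

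Succinate dehydrogenase, which is also complex II of the respiratory chain, fell in all 4 subunits, by 0.49 to 0.80 on the log2 scale. Sdhb, the iron-sulfur subunit (chromosome 4, 140961271 to 140979198), measured 130.4, 132 and 113 RPKM in the control libraries and 75.6, 67.9 and 70.9 RPKM in the low glutamine libraries and fell from 125 ± 10.5 to 71.5 ± 3.86 RPKM (-0.80 ± 0.071, adjusted p = 7.6e-07). Sdhd, a membrane anchor (chromosome 9, 50596340 to 50603849), measured 205, 208 and 199 RPKM in the control libraries and 128, 124 and 131 RPKM in the low glutamine libraries and fell from 204 ± 4.55 to 128 ± 3.52 RPKM (-0.68 ± 0.056, adjusted p = 4.0e-07). The flavoprotein Sdha went from 154 ± 0.469 to 109 ± 6.52 RPKM (-0.49 ± 0.060, adjusted p = 1.4e-05) and the second anchor Sdhc from 194 ± 10.5 to 127 ± 2.27 RPKM (-0.60 ± 0.060, adjusted p = 2.2e-06). No value of the 4 subunits overlapped between the groups. The 4 assembly factors Sdhaf1 to Sdhaf4 did not pass, with a median of -0.02, and they were expressed at a lower level, their RPKM adding up to 39.8 to 43.2 in the controls against 38.9 to 41.6 with low glutamine.

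Both genes of the last steps fell. Fh1, fumarase, which makes malate from fumarate (chromosome 1, 175601378 to 175625635), measured 75.1, 74.5 and 70.4 RPKM in the control libraries and 63.9, 59.8 and 63.6 RPKM in the low glutamine libraries and fell from 73.4 ± 2.55 to 62.4 ± 2.30 RPKM (-0.23 ± 0.055, adjusted p = 0.003), but its adjusted p was 0.068 with rescaling without Rn45s and 0.2 after quantile normalization. Mdh2, the mitochondrial malate dehydrogenase that closes the cycle (chromosome 5, 135778649 to 135790386), was the most abundant of the 39 genes, at 498, 517 and 461 RPKM in the control libraries and 237, 233 and 237 RPKM in the low glutamine libraries. It fell from 492 ± 28.3 to 236 ± 2.17 RPKM (-1.06 ± 0.064, adjusted p = 2.1e-08), to 47.9% of control, and ranked 413th among all tested genes by size of fall. Mdh2 alone held 15.0% to 15.9% of the summed RPKM of the 39 genes in control and 10.6% to 11.3% in low glutamine.

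The enzymes outside the cycle proper act on citrate, isocitrate or malate, and some of them make NADPH. They fell in 4 of 6 tested genes, and 2 (Idh2 and Acly) did not pass. Me1, the cytosolic malic enzyme that makes pyruvate and NADPH from malate (chromosome 9, 86581363 to 86695914), showed the largest change of the 37 tested genes. It measured 21.4, 22.4 and 20.2 RPKM in the control libraries and 4.29, 3.94 and 3.89 RPKM in the low glutamine libraries and fell from 21.4 ± 1.13 to 4.04 ± 0.218 RPKM (-2.15 ± 0.057, adjusted p = 1.1e-11), to 18.9% of control, the 106th largest fall of all tested genes. Me2, a mitochondrial malic enzyme (chromosome 18, 73764954 to 73815438), measured 51.0, 52.0 and 52.9 RPKM in the control libraries and 32.6, 31.8 and 33.7 RPKM in the low glutamine libraries and fell less (-0.65 ± 0.051, adjusted p = 2.3e-07). Me3, the third malic enzyme, was under the filter at 0.198, 0.149 and 0.159 RPKM in the control libraries and 0.282, 0.188 and 0.178 RPKM in the low glutamine libraries, with overlapping groups. The share of Me1 in the malic enzyme RPKM was 29.5%, 30.1% and 27.6% in the control libraries and 11.6%, 11.0% and 10.3% in the low glutamine libraries. The sum of the family went from 73.5 ± 0.978 to 36.9 ± 0.892 RPKM. The cytosolic malate dehydrogenase Mdh1 fell from 158 ± 1.77 to 112 ± 8.25 RPKM (-0.49 ± 0.063, adjusted p = 2.3e-05). Acly, which splits cytosolic citrate into acetyl-CoA and oxaloacetate, measured 95.4, 93.9 and 92.5 RPKM in the control libraries and 92.5, 89.6 and 97.6 RPKM in the low glutamine libraries and did not pass (-0.01, 95% interval -0.13 to 0.11, adjusted p = 0.86). It was higher and passed with both rescalings (0.11 and 0.14, adjusted p = 0.01 and 0.0021) and with quantile normalization (0.19, adjusted p = 4.7e-04).

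The NADP-dependent isocitrate dehydrogenases, which can also make 2-oxoglutarate, include 1 gene that fell and 1 that did not pass. The cytosolic Idh1 (chromosome 1, 65158616 to 65186479) measured 104, 101 and 108 RPKM in the control libraries and 72.1, 69.5 and 84.8 RPKM in the low glutamine libraries and fell from 104 ± 3.75 to 75.5 ± 8.18 RPKM (-0.47 ± 0.074, adjusted p = 1.3e-04). The mitochondrial Idh2 (chromosome 7, 80094845 to 80118608) measured 74.3, 76.5 and 79.2 RPKM in the control libraries and 81.8, 78.5 and 93.9 RPKM in the low glutamine libraries, which overlapped, and did not pass (0.14, 95% interval -0.01 to 0.29, adjusted p = 0.094). Low glutamine replicate 3 was the highest of its group for both genes. Idh2 passed as higher without low glutamine replicate 2 (0.19, adjusted p = 0.037), with rescaling to a common sum (0.26, adjusted p = 0.0022), with rescaling without Rn45s (0.29, adjusted p = 0.0011) and with quantile normalization (0.33, adjusted p = 5.0e-04). Within the pair Idh2 made up 41.7%, 43.2% and 42.3% of the RPKM in the control libraries and 53.2%, 53.0% and 52.5% in the low glutamine libraries. D2hgdh, which oxidises D-2-hydroxyglutarate to 2-oxoglutarate (chromosome 1, 93823195 to 93853857), measured 7.82, 8.24 and 7.67 RPKM in the control libraries and 5.28, 5.52 and 5.91 RPKM in the low glutamine libraries and fell from 7.91 ± 0.296 to 5.57 ± 0.316 RPKM (-0.44 ± 0.056, adjusted p = 2.1e-05).

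**Figure D3:**
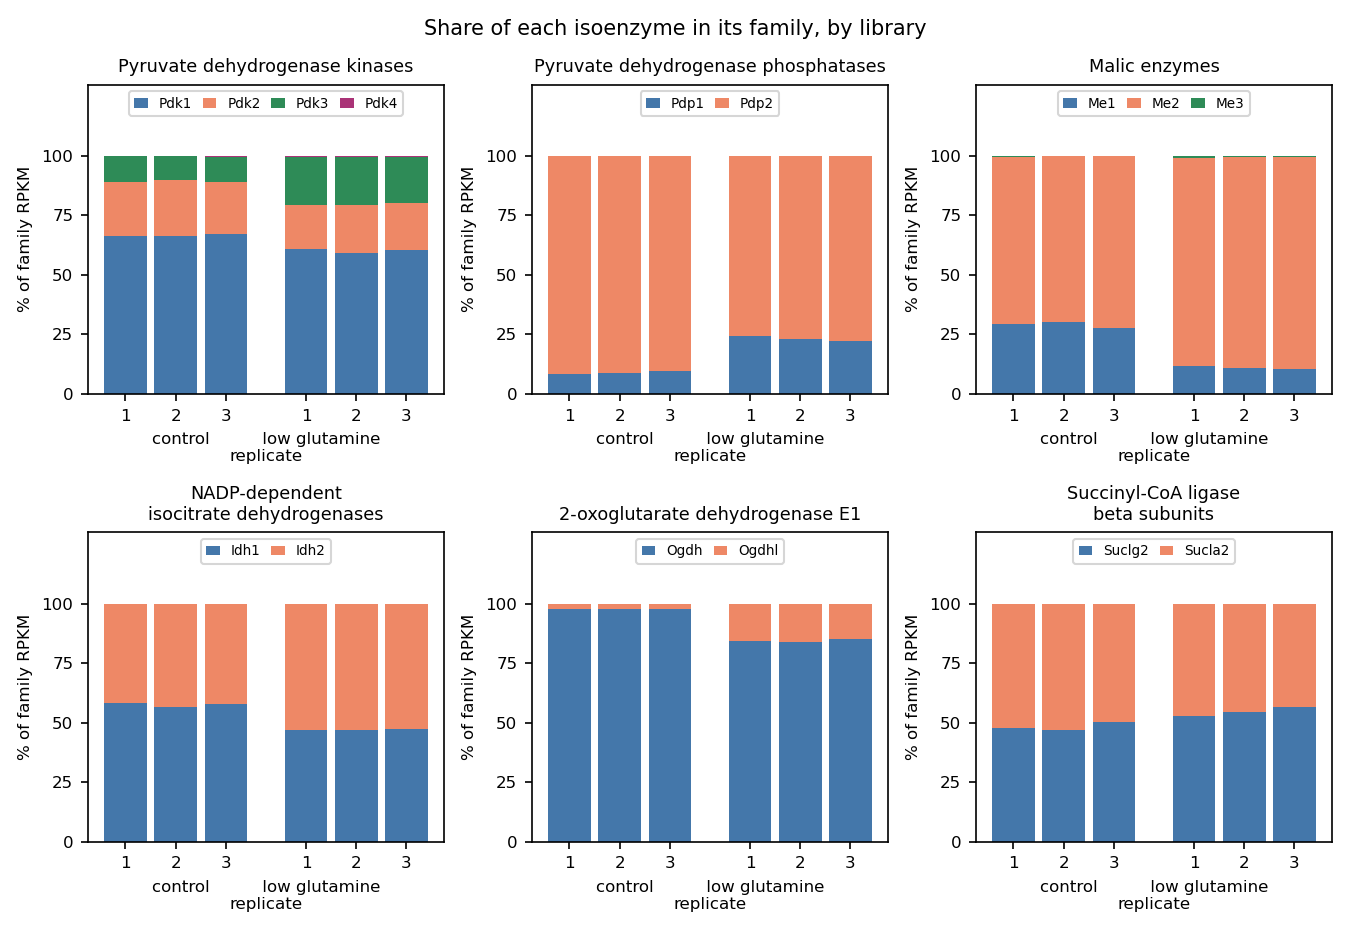
Percentage of the summed RPKM of 6 families held by each isoenzyme, with 1 bar per library and replicates 1 to 3 of each group on the x axis. In low glutamine the bars hold a larger share of Pdk3 (10.6% to 19.8% on average), Pdp1 (9.01% to 23.2%), Idh2 (42.4% to 52.9%), Ogdhl (2.26% to 15.5%) and Suclg2 (48.3% to 54.7%) and a smaller share of Me1 (29.1% to 10.9%).

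The genes that make or use 2-oxoglutarate were set beside the others. Of 10, 8 fell, Ogdhl rose and Idh2 did not pass, with a median of -0.45 and a summed level of 650 to 657 RPKM in the controls against 480 to 543 RPKM with low glutamine. Of the 6 that make it (Idh1, Idh2, Idh3a, Idh3b, Idh3g and D2hgdh) 5 fell, with a median of -0.34. Of the 4 that use it (Ogdh, Ogdhl, Dlst and Dld) 3 fell and 1 rose, with a median of -0.50. Among the other 27 tested genes 21 fell, 2 rose and 4 did not pass, with a median of -0.49. The difference between these gene groups was not tested, because genes are not replicates of a condition.

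Genes of neighbouring pathways were counted in the same way, to be read beside the 30.3% lower and 36.1% higher of all tested genes. Of 13 tested genes of glutamate and 2-oxoglutarate supply, 7 fell, 4 rose and 2 did not pass. Among the transaminases, Gpt, Got1, Oat and Kyat1 fell by 2.07, 1.47, 1.22 and 0.71 (log2). All 4 genes that rose are transaminases too: Psat1 (0.41), Bcat2 (0.34), Got2 (0.30), the mitochondrial partner of Got1, and Kyat3 (0.16). Glutamate dehydrogenase (Glud1) measured 57.6 ± 1.92 and 60.5 ± 1.97 RPKM (0.07, adjusted p = 0.28). Of 12 mitochondrial metabolite carriers 10 fell, including the citrate carrier Slc25a1 (216 to 117 RPKM) and the 2-oxoglutarate carrier Slc25a11 (49.6 to 37.5 RPKM). The ATP/ADP carrier Slc25a4 rose from 23.9 to 64.1 RPKM, while the more abundant ATP/ADP carrier Slc25a5 fell from 528 to 358 RPKM. Of 15 genes of lipoylation and iron-sulfur cluster supply, which equip Dlat, Dlst and Sdhb with their cofactors, 7 fell, 2 rose and 6 did not pass (median -0.13), with Isca1 and Nfu1 lower by 0.47 and 0.44. Of 17 other enzymes around the cycle 9 fell, 4 rose and 4 did not pass.

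Genes of the branched-chain 2-oxoacid dehydrogenase and of the glycine system, both of which also use Dld, were mostly higher. Of 7 tested genes of the branched-chain and glycine systems 5 rose and 2 fell (Dbt and Gcsh), with a median of 0.45. The list includes the regulators Bckdk and Ppm1k, which both rose. Of the branched-chain subunits themselves, Bckdha and Bckdhb rose and Dbt fell. Bckdhb, a branched-chain E1 chain, rose from 2.09 ± 0.301 to 4.88 ± 0.241 RPKM (0.93, adjusted p = 2.9e-07), and its kinase Bckdk from 16.5 to 22.9 RPKM (0.45, adjusted p = 6.5e-06). The count of this list moved with the setting, from 2 to 7 higher and 0 to 2 lower. Among 14 genes of mitochondrial biogenesis 5 rose, 3 fell and 6 did not pass (median 0.03, as for all tested genes). As a share, the rises were near the 36.1% of all tested genes called higher. Of the 3 that fell, 2 were the coactivator Ppargc1a (3.12 ± 0.283 to 1.06 ± 0.167 RPKM; adjusted p = 2.1e-07) and the nuclear receptor Esrra (53.0 ± 4.54 to 22.9 ± 1.38 RPKM; -1.18, adjusted p = 1.6e-08). The other was Polg, the mitochondrial DNA polymerase (-0.19, adjusted p = 0.0073). The 5 that rose were Gabpb1 (0.30), Pprc1 (0.22), Nrf1 (0.18), Tfb2m (0.16) and Twnk (0.14). Ppargc1b, Gabpa, Tfam and Esrrg were among those that did not pass.

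**Figure D4:**
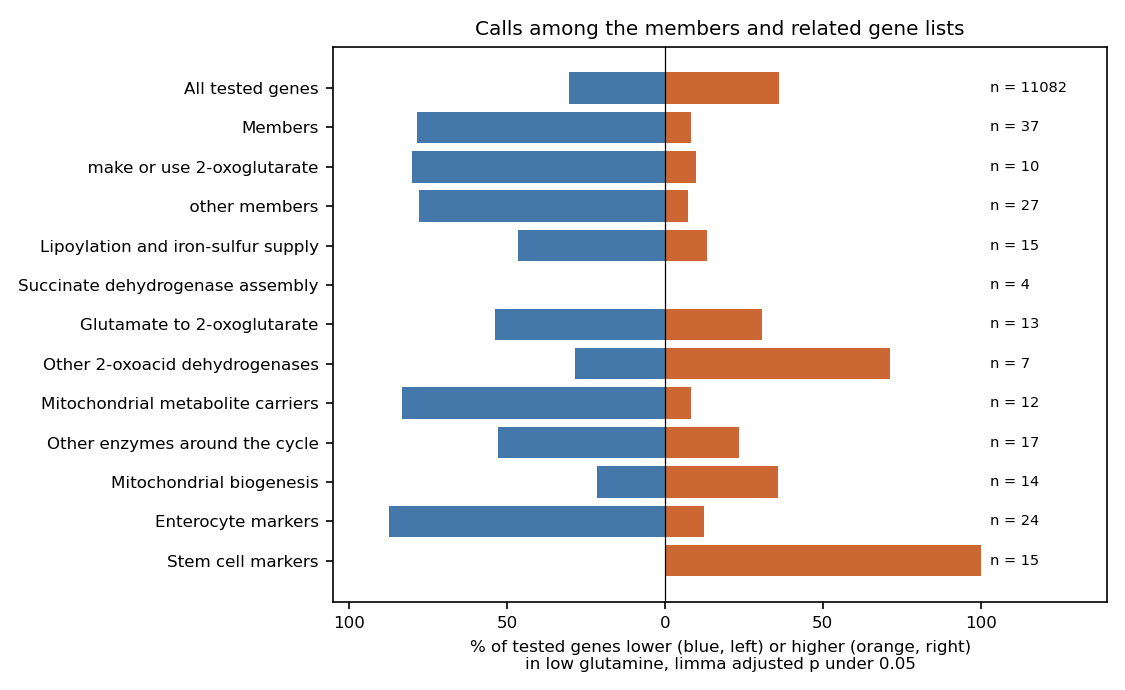
Percentage of tested genes called lower (blue, to the left) or higher (orange, to the right) in low glutamine by limma, for all tested genes, the TCA and pyruvate genes (members) and the related and marker lists, with the number tested at the right. The members stand at 78.4% lower against 30.3% of all genes and the mitochondrial carriers at 10 of 12 lower. The list named other 2-oxoacid dehydrogenases, which includes regulators and glycine system genes, stands at 5 of 7 higher.

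The promoters were searched for 7 motifs in the 250 bases before each annotated start, on both strands, for the 35 genes of the set in the RefSeq promoter table (46 promoters). ACGTG was found in 12 of the 35 genes (34.3%) against 18.5% of 27025 genes in the table. Over promoters the figures were 17 of 46 (37.0%) and 16.6% of 32851, and 6 of the 46 are starts of Ogdh. The 12 genes were Acly, Idh3g, Mdh1, Me1 at a second start, Ogdh, Ogdhl, Pcx, Pdhb, Pdk2, Pdk3, Pdp2 and Sdha, so genes that rose, fell and did not pass all hold it. The E-box CACGTG, which contains ACGTG, was in 4 genes (11.4% against 6.86%), the NRF1 core GCGCATG in 3 (8.57% against 3.68%), the ETS core CCGGAAG in 3 (8.57% against 7.83%) and the YY1 core AAGATGG in 1 (2.86% against 5.18%). The ERR motif AAGGTCA and the TCF core CTTTGAT were in none, against 4.70% and 3.72% of all genes. The windows of these genes are richer in G and C than the table as a whole (median 61.6% against 52.4%), no test was made, and RNA data do not show which start was used.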

How the data were processed

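The deposited table holds RPKM values, made by the authors, for 24956 gene symbols in 6 libraries of Apc Min intestinal organoids. Per the submitters' processing notes, the tools were CASAVA 1.8, HISAT2 2.0.4 and Partek, on mm10. No source used here gives the annotation, the counting rule or the strand setting. Depth, estimated from the low values of 842 single-exon genes, was 24.4 to 35.3 M reads per library. At that depth 67.9% to 83.5% of 81 to 117 low values per library were whole reads within 0.02, partly by construction, so no count test was run.

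Differences are limma 3.58.1 (R 4.3.3, eBayes with trend, two-sided) on log2(RPKM + 1), which understates changes of low genes, for genes averaging 1 RPKM or more, and the fit was tested on simulated data. Summaries and exact tests used Python 3.11.15 with pandas 2.3.3, numpy 2.4.6, scipy 1.17.1 and matplotlib 3.10.9. RefSeq (GRCm38.p6) matched 24310 rows by symbol, 528 by synonym and 118 not at all. The members and lists were chosen with earlier results of these data known. Values in every library are given for the genes that make or use 2-oxoglutarate and for at least the 2 with the largest change in each other role. From each related list, members with the smallest p and 8 set genes could be named, and some are not reported here. Other list genes were chosen after their values were seen. Same-numbered libraries deviated together from their group means, with correlations of 0.15, 0.25 and 0.57. This meets the rule set for pairing (each above 0.1), although control replicate 2 correlated at 0.36 with low glutamine replicate 1. Xist and Eif2s3y differed between every control and every low glutamine library. Same-numbered libraries were therefore not taken to come from the same animal, although they met the rule. Alternatives covered the pseudocount, filter, scaling, the replicate block, autosomal genes and each library left out.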

Additional observations from a re-analysis of the deposited data

How the results depend on the processing

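Over 16 alternative settings, 586 refits of single TCA and pyruvate genes gave 558 with the same direction and side of the threshold. Of the rest, 10 no longer passed and 6 newly passed with the sign kept, and 12 changed sign. Sign changes were counted only as such, whether or not the gene crossed the threshold. Acly newly passed among them with both rescalings and quantile normalization, and Idh3a no longer passed with quantile normalization. The call of 28 genes was the same under every setting in which the gene was tested. Ogdhl, Pdp1 and Pcx were not tested with a filter of 5 RPKM, nor the X-linked Pdk3, Pdha1 and Idh3g in the autosomal fit. With the replicate number as a block 29 of the TCA and pyruvate genes were lower and 3 higher, and no call among them changed. The genes higher numbered 1 with a filter of 5 RPKM (fewer genes tested), 5 with libraries scaled to a common sum, 6 with that done without Rn45s and 5 with quantile normalization, the cause of the last 3 not tested. The medians of all, of the 2-oxoglutarate and of the other genes were -0.34, -0.34 and -0.36 with the common sum, -0.31, -0.31 and -0.33 without Rn45s, and -0.31, -0.28 and -0.31 with quantile normalization. Among all genes 2532 were higher with the filter of 5 RPKM and 6021 with the scaling without Rn45s, which also gave 32 higher genes in the 7 related lists against 21. Signs changed, with no cause tested, for Pdhx (0.05 and 0.08 with the rescalings), Suclg2 (0.08 and 0.10 with the rescalings, 0.09 with quantile normalization, and -0.14 to 0.00 with a library left out), Acly (0.11, 0.14 and 0.19 in the same order, and -0.04 to 0.02), Pcx (-0.10) and Idh3a (0.00), both with quantile normalization. Leaving out each library in turn gave 28 to 30 genes lower and 3 to 4 higher, and medians of -0.51 to -0.43 for all, -0.50 to -0.42 for the 2-oxoglutarate genes and -0.52 to -0.45 for the others. Over all genes it gave 3666 to 3962 higher and 2953 to 3636 lower, and in the related lists 17 to 20 higher and 33 to 40 lower. At these depths genes near 1 RPKM rest on few reads, and 7 of the 39 genes overlap another gene of the table.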

Other observations

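The largest change among the 82 tested genes of the related lists was in lactate metabolism. Ldhb, the lactate dehydrogenase chain of oxidative tissues, rose from 0.473 ± 0.0413 to 12.5 ± 0.534 RPKM (3.20 on the log2 scale, limma adjusted p = 3.4e-13), with no overlap between the groups. Ldha, the more abundant chain, fell from 968 to 519 RPKM, and the lactate exporter Slc16a3 fell from 55.7 to 18.8 RPKM. Ornithine aminotransferase (Oat), which feeds glutamate, fell from 989.7 to 424 RPKM. The cytosolic acetyl-CoA synthetase Acss2 fell from 52.0 to 24.7 RPKM, while its mitochondrial relative Acss1 rose from 8.68 to 13.1 RPKM. Ldha, Oat, Acss1 and Acss2 were chosen after their values were seen.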
